A study of Sus scrofa with 24 samples.

Results

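FHL1, FHL3, CSRP3, ANKRD1 and ANKRD2 encode LIM domain and ankyrin repeat proteins of striated muscle that are known to respond to stretch and load. All 5 genes were found by symbol in the deposited table, as 5 of 12017 genes and 21 of 22154 listed transcripts. The rule takes them by symbol and uses no measured value. RNA was sequenced from 24 pigs, from the longissimus dorsi, a long back muscle. These were F1 animals of Duroc boars and Luchuan sows, raised on 1 farm with the same feed and slaughtered at 210 ± 6 days, with muscle sampled 25 minutes after death. By label, 12 had high and 12 had low intramuscular fat (IMF), which is fat stored between the fibres of a muscle, and no treatment is named. Since the labels name no stretch or load either, the response to stretch was not measured here. The labels describe whole muscle pieces and give neither litter nor the fat content of each animal.

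LIM domains are small zinc-binding folds through which proteins hold on to one another, and ankyrin repeats are stacked helices that serve the same purpose. Proteins of both kinds sit at the Z-disc, where neighbouring sarcomeres are joined, or along the elastic part of titin, the spring of the sarcomere. Several of them can also enter the nucleus and act with transcription factors, and they are therefore studied as links between mechanical load and gene expression. FHL1 is linked to fibre growth and to inherited muscle disease. FHL3 binds actin filaments and the muscle regulator MyoD. CSRP3, also called muscle LIM protein, is a Z-disc protein of slow fibres and heart. ANKRD1 and ANKRD2 bind titin, and their RNA is known to increase after injury, exercise or stretch.

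Expression is given in FPKM, fragments scaled to transcript length and library size, summed over the transcripts listed for a gene. Depth is not stated and was inferred from the steps of the values as 32.9 to 40.8 M reads (mega, M) per library. Summed FPKM was 351119 to 415572 per library. The share of FPKM in the top 10 genes was smallest in low IMF 10 (18.5%) and high IMF 7 (20.2%), and 24.7% or more elsewhere. All 10 muscle fibre markers were measured. ACTA1, skeletal actin, was at 1012 to 34774 FPKM, whereas MB, myoglobin, had a mean of 0.408 FPKM in high and 0.628 FPKM in low IMF muscle. MB was at most 2.35 FPKM in any animal, and whether this reflects the muscle or the listing of its transcripts was not tested. Of the 10 muscle fibre markers 0 passed an adjusted p of 0.05 and 2 were lower in high IMF muscle at an unadjusted p under 0.05 (limma). Their log2 differences, high minus low, were below 0 for 8 of 10, with a median of −0.16. Of 12 adipocyte markers 2 were higher in high IMF muscle (limma, adjusted p under 0.05), LEP and TUSC5, and 9 were higher at an unadjusted p under 0.05. Over all genes, 0.051% passed the adjusted p in either direction. At the unadjusted p 6.79% were higher and 0.893% lower. The summed level of the adipocyte markers was 158 to 323 FPKM in high and 105 to 238 FPKM in low IMF animals. In these bulk samples, fewer cells of a type and less RNA per cell cannot be told apart. The heart markers listed for this comparison were not analysed here.

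None of the 5 genes passed the test between high and low IMF muscle, and the levels of the 2 classes overlapped for each. In limma's test on log2(FPKM + 1), 0 of 5 passed an adjusted p of 0.05, where 0.051% of all 11757 genes tested passed. At an unadjusted p under 0.05 the count was also 0 of 5, against 7.68% of all genes, of which 6.79% had higher and 0.893% lower values in high IMF muscle. The median log2 difference, high minus low, was 0.02 over the 5 genes and 0.08 over all genes. All 5 genes and all 21 transcripts passed the minimum mean of 0.5 FPKM.

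**Figure D1:**
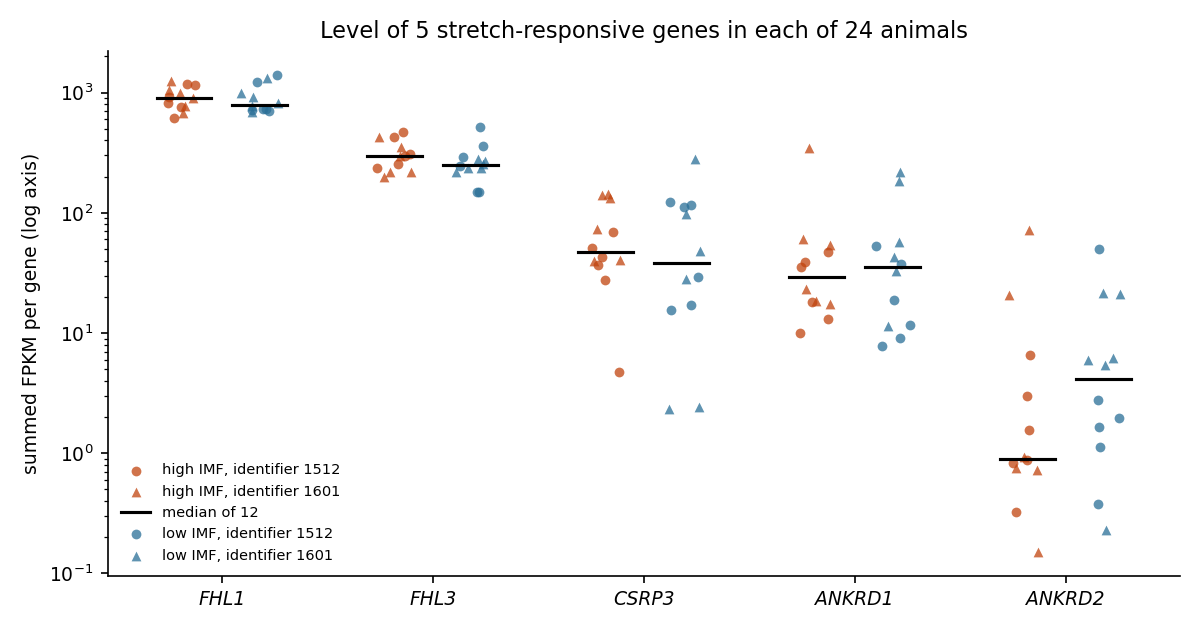
Summed FPKM of the 5 genes in each of 24 pigs, on a log axis, with high IMF animals in orange, low IMF animals in blue, point shape for identifiers beginning DLC1512 or DLC1601 and the median of each class as a black line. The classes overlap for every gene, and the spread is narrower for FHL1, which ran from 609.6 to 1411 FPKM, than for ANKRD2, which ran from 0.151 to 72.2 FPKM.

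The levels per length were ordered FHL1, FHL3, CSRP3, ANKRD1 and ANKRD2, at means of 922, 288, 69.8, 56.9 and 9.48 FPKM over all animals. FHL1 took rank 49 in abundance among all genes, FHL3 rank 163, CSRP3 rank 517, ANKRD1 rank 631 and ANKRD2 rank 2975. FHL1 was above FHL3 in 24 of 24 animals, and FHL3 was above CSRP3 in 24 of 24. The latter was narrow in low IMF animal 3, with 279.3 FPKM of FHL3 and 279.1 of CSRP3. CSRP3 was above ANKRD1 in only 16 of 24 animals, so these neighbours did not differ beyond their spread. ANKRD1 was above ANKRD2 in 23 of 24.

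FHL1 was the most abundant member, at 923 ± 203 FPKM in high and 921 ± 258 FPKM in low IMF muscle (SD, n = 12 each). High IMF animals ran from 609.6 over a median of 906 to 1242 FPKM, and low IMF animals from 690.1 over 795 to 1411 FPKM. The ranges overlap widely. The fold on the log2(FPKM + 1) scale was 1.01, with a 95% interval of 0.829 to 1.23 and an adjusted p of 0.987 (limma). Its sign turned with scaling between libraries, to a log2 difference of −0.10 with a trimmed mean of M values.

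FHL1 lies on chromosome X at 111310177 to 111368070 (plus strand, Sscrofa11.1) and had 10 listed transcripts, 7 of the reference and 3 added by the authors' assembly. One reference transcript, ENSSSCT00000013884, held 90.6 ± 1.55% of FHL1 in high and 90.6 ± 3.69% in low IMF muscle, and led in 24 of 24 animals. The 3 transcripts from the outermost start, about 46.0 kb upstream of the start of the main one, held 3.52 ± 1.29% and 4.45 ± 3.42% (two-sided permutation p = 0.492). Their share was largest in low IMF animal 2, at 14.6%, where the main transcript held 80.0% of the gene.

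A minor transcript stood apart from the rest of FHL1. ENSSSCT00000035444 has 6 exons and 2386 bases and starts 5897 bases downstream of the main transcript, the most downstream start of the 10. High IMF animals ran from 8.78 over a median of 12.9 to 16.3 FPKM, and low IMF animals from 5.05 over 7.83 to 11.8 FPKM. All 12 high IMF animals were above the low IMF median, while the ranges still overlap. The log2 difference was 0.64 (SE 0.13), the unadjusted p was 5.9e-05 and the adjusted p over all 21405 transcripts was 0.181 (limma), so it did not pass. It ranked 7 of all transcripts by p.

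As a share of FHL1 this transcript held 1.38 ± 0.336% in high and 0.879 ± 0.298% in low IMF muscle, a difference of 0.506 percentage points (two-sided permutation p = 0.00062). Fitted with limma over the shares of all 15024 transcripts of genes with several, the same difference had an adjusted p of 0.962, and 0% of shares were called there. Leaving out any 1 animal kept the difference between 0.438 and 0.557 points. In the authors' deposited table the transcript has a low over high fold of 0.674, a p-value of 0.000275 and q-values of 0.552, 0.297 and 0.156. Adipocyte marker levels were higher in the same animals' class, and their part in this difference was not tested. Reads that FHL1 transcripts share were divided between them by the authors' assembly, so a share near 1% is less certain than the sum.

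**Figure D2:**
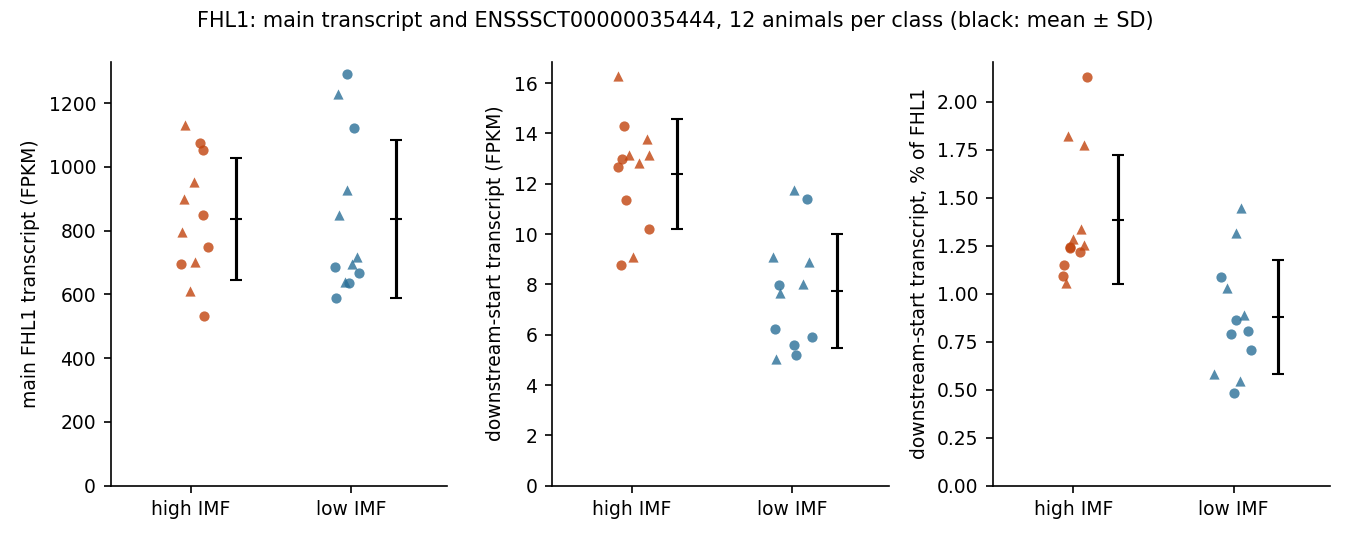
FPKM of the main FHL1 transcript, FPKM of ENSSSCT00000035444 and its percent of summed FHL1 FPKM, in 12 high and 12 low IMF pigs, with circles for identifiers starting DLC1512, triangles for DLC1601 and black bars for mean ± SD. The classes overlap widely for the main transcript, while all 12 high IMF animals lie above the low IMF median of 7.83 FPKM for the downstream-start transcript.

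The other 8 FHL1 transcripts had means of 0.689 to 30.6 FPKM over all animals, and none passed (limma). ENSSSCT00000034078, which starts 4491 bases downstream of the main transcript, was at 2.41 ± 0.741 FPKM in high and 1.94 ± 0.555 FPKM in low IMF muscle, with an adjusted p of 0.824. The authors' deposited table gives it a low over high fold of 0.835 and a p-value of 0.0292. The authors' deposited table has a p-value under 0.05 for 3 of 21 member transcripts, against 6.39% of all transcripts. Across all members, 1 of 21 transcripts had an unadjusted p under 0.05 and 0 of 21 were called, against 6.34% and 0.0187% of all transcripts tested.

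FHL3 lies on chromosome 6 at 93980635 to 93988573 (minus strand) with 2 reference transcripts. Its sum was 308 ± 90.3 FPKM in high and 268 ± 98.4 FPKM in low IMF muscle. High IMF animals ran from 200.3 over a median of 296 to 467 FPKM, and low IMF animals from 149 over 251 to 521 FPKM. In 8 of 12 high IMF animals the level was above the low IMF median. The fold was 1.17 (95% interval 0.909 to 1.503, adjusted p = 0.772, limma). ENSSSCT00000004040 held 93.8 ± 1.94% of the gene in high and 93.6 ± 2.16% in low IMF muscle and led in all 24 animals.

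CSRP3 lies on chromosome 2 at 40215357 to 40240621 (plus strand) with 1 reference transcript and 2 added ones. Its level varied far more between animals than that of the FHL genes, from 4.71 over a median of 46.8 to 145 FPKM in high and from 2.33 over 38.4 to 279 FPKM in low IMF animals. The fold was 1.39, with a 95% interval of 0.553 to 3.49 and an adjusted p of 0.880 (limma). The linear means point the other way, at 67.2 ± 47.5 FPKM in high and 72.5 ± 79.7 FPKM in low IMF muscle. Neither direction holds beyond the spread.

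CSRP3 rested on its longest-reaching transcript, MSTRG.7431.1, an added form of 7 exons whose start lies 12506 bases upstream of the start of the other 2. It led in 19 of 24 animals. It was listed at 0 in high IMF animal 2 and low IMF animals 4, 5 and 9, and in these the gene summed to 4.71, 2.33, 2.41 and 15.7 FPKM. Without those 4 animals, left out after their values were seen, the log2 difference of CSRP3 was −0.13 (SE 0.44). With all 24 it was 0.47 (SE 0.65).

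The reference transcript of CSRP3, ENSSSCT00000014585, was at 1.44 to 3.66 FPKM in 23 animals and at 76.0 FPKM in low IMF animal 10, where it was 78.4% of the gene. Its values were 2.001 ± 0.335 FPKM in high and 8.29 ± 21.3 FPKM in low IMF muscle, with a log2 difference of −0.43 (SE 0.38) and an adjusted p of 0.894 (limma). The authors' deposited table gives it a low over high fold of 1.75 and a p-value of 0.0237. Low IMF animal 10 is the library with the smallest share of FPKM in its 10 most abundant genes.

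ANKRD1 lies on chromosome 14 at 102603156 to 102613145 (minus strand) with 4 reference transcripts. Its level was 56.8 ± 92.6 FPKM in high and 57.0 ± 69.6 FPKM in low IMF muscle. High IMF animals ran from 9.96 over a median of 29.2 to 346 FPKM, and low IMF animals from 7.84 over 35.3 to 218 FPKM. The fold was 1.003 (95% interval 0.461 to 2.18, adjusted p = 0.999, limma), and its sign turned with scaling by a trimmed mean of M values, to a log2 difference of −0.10.

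ANKRD1 stood far above the rest in 3 animals. High IMF animal 6 had 346 FPKM, low IMF animal 3 had 218 and low IMF animal 10 had 184, and the next animal had 60.6. They belong to both IMF classes. All 3 have identifiers that begin with DLC1601, a code whose meaning the labels do not give. ANKRD1 was 24.99 ± 16.2 FPKM in the 12 animals of the DLC1512 set and 88.8 ± 105 FPKM in the 12 of the DLC1601 set, a log2 difference of 1.29 (SE 0.49, adjusted p = 0.767, limma). Its unadjusted p was 0.0145, 6.48% of all genes had one under 0.05 for the sets, and 0% were called.

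The 4 ANKRD1 transcripts were closer to one another in level than those of FHL1 or FHL3. ENSSSCT00000066364 led in 14 animals, ENSSSCT00000049949 in 5, ENSSSCT00000063718 in 4 and ENSSSCT00000052592 in 1. ENSSSCT00000049949 held 18.9 ± 10.99% of ANKRD1 in high and 30.0 ± 9.45% in low IMF muscle, a difference of −11.1 percentage points (two-sided permutation p = 0.0136). In the fit over all shares its adjusted p was 0.962 (limma), so it did not pass. Of the 21 member shares, 2 had an unadjusted p under 0.05 in that fit, against 4.87% of all shares.

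ANKRD2 lies on chromosome 14 at 108944791 to 108959382 (plus strand) with 2 reference transcripts and was the least abundant member. High IMF animals ran from 0.151 over a median of 0.903 to 72.2 FPKM, and low IMF animals from 0.232 over 4.11 to 50.0 FPKM. Its 5 highest animals were high IMF 6 with 72.2, low IMF 2 with 50.0, low IMF 3 with 21.6, low IMF 10 with 21.2 and high IMF 5 with 20.9 FPKM. The fold was 0.633 (95% interval 0.244 to 1.64, adjusted p = 0.827, limma). In high IMF animal 1 its level amounts to about 16.6 reads at the inferred depth, so low values are imprecise.

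The deposited table also lists a transcript with no gene symbol, MSTRG.4901.2, from 108886682 to 108958386 on chromosome 14, whose end is that of ANKRD2 transcript ENSSSCT00000011512. It starts upstream of ANKRD2, whose outermost start is at 108944791, and has 11 exons, against 8 in either ANKRD2 transcript. It may thus hold reads from outside ANKRD2. It had a mean of 20.3 FPKM, and it held 37.3% to 98.9% of the sum when added to ANKRD2. That sum was 32.2 ± 32.5 FPKM in high and 27.3 ± 27.1 FPKM in low IMF muscle. The log2 difference of ANKRD2 then changed from −0.66 (SE 0.67) to 0.22 (SE 0.43), a calculation added after the values were seen. The direction for ANKRD2 therefore depends on which gene owns these reads, which was not settled here.

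**Figure D3:**
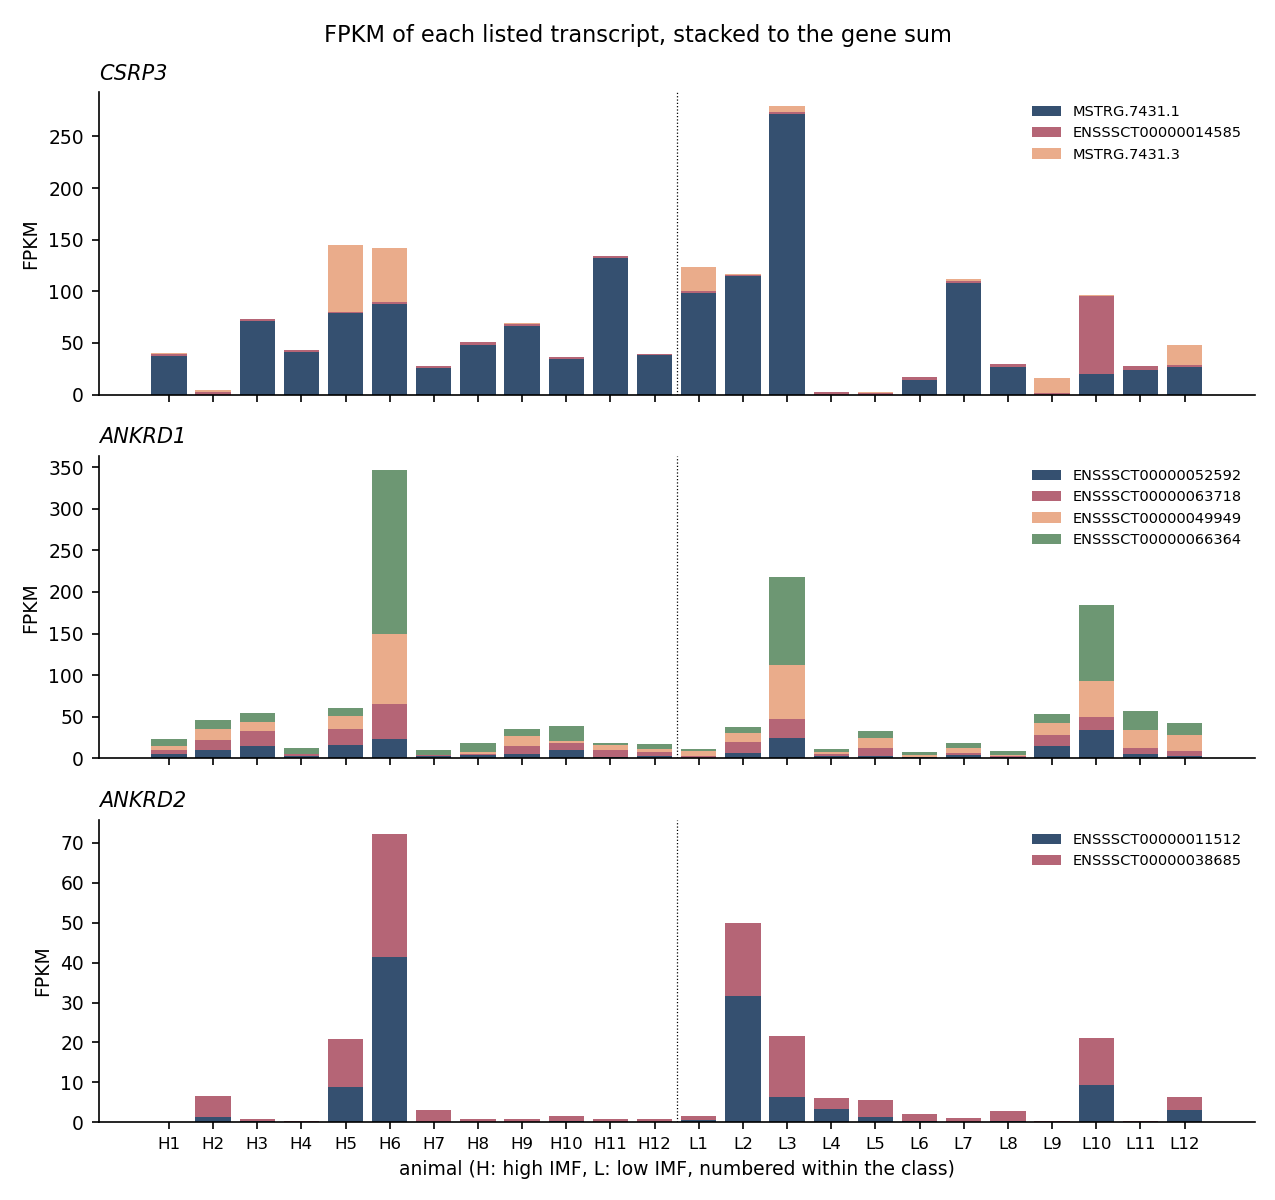
FPKM of each listed transcript of CSRP3, ANKRD1 and ANKRD2, stacked to the gene sum, in 12 high IMF (H) and 12 low IMF (L) pigs. ANKRD1 reached 346, 218 and 184 FPKM in H6, L3 and L10 and at most 60.6 FPKM elsewhere, and MSTRG.7431.1 of CSRP3 is listed at 0 in H2, L4, L5 and L9.

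**Figure D4:**
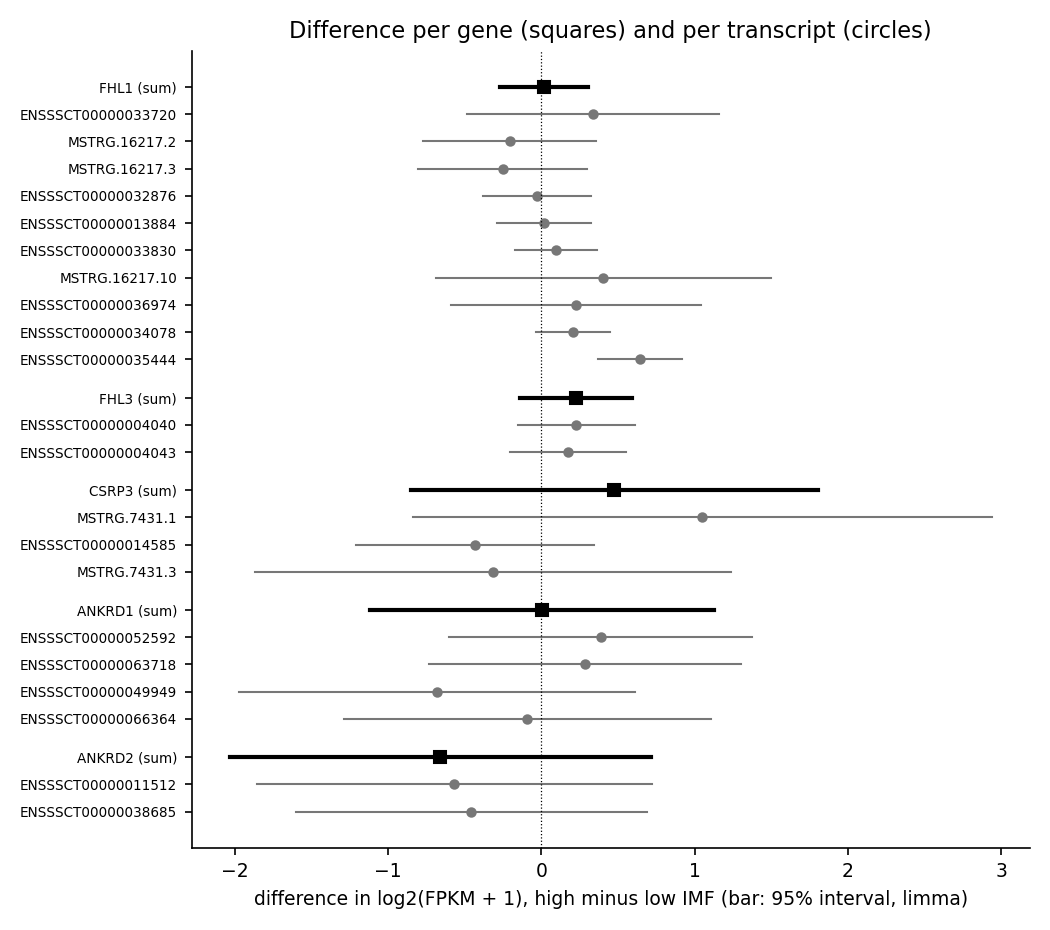
Difference in log2(FPKM + 1), high minus low IMF, with its 95% interval, for the sum of each gene (squares) and each of 21 transcripts (circles). The intervals of all 5 sums include 0, and ENSSSCT00000035444 of FHL1 lies at 0.64.

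The members split in how much they varied between animals of 1 class. The residual SD of log2(FPKM + 1) was 0.350 for FHL1 and 0.452 for FHL3, at the percentiles 55.6 and 75.1 of all genes, whose median was 0.330. It was 1.70 for CSRP3, 1.44 for ANKRD1 and 1.76 for ANKRD2, at the percentiles 99.7, 99.4 and 99.8 of all genes. The highest animal had 2.32 times the lowest for FHL1 and 3.50 times for FHL3. For CSRP3, ANKRD1 and ANKRD2 the ratio was 120, 44.1 and 477. The lowest CSRP3 animals, at 2.33 to 15.7 FPKM, are those with MSTRG.7431.1 listed at 0, and the next had 17.1 FPKM. The lowest ANKRD2 level, 0.151 FPKM, amounts to about 16.6 reads at the inferred depth. With the unnamed transcript MSTRG.4901.2 added, ANKRD2 ran from 7.07 to 115 FPKM. How far the assembly and assignment of transcripts entered the ratios of CSRP3 and ANKRD2 was not tested. The intervals of the IMF difference were correspondingly wide for the last 3.

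Within each identifier set, 6 high were compared with 6 low IMF animals by exact two-sided permutation tests. All 3 pairs of animals that share the first 9 identifier digits within a class lie in the DLC1512 set. The tests treated each animal as separate, and the labels do not say whether such animals are related. The lowest p of the 10 tests was 0.197, for CSRP3 in the DLC1601 set, at 95.7 ± 50.3 FPKM in high and 76.1 ± 105 FPKM in low IMF muscle. In the DLC1512 set CSRP3 was 38.6 ± 21.9 FPKM in high and 68.9 ± 53.2 FPKM in low (exact p = 0.416). The difference between sets in the CSRP3 effect was 2.27 on the log2 scale (SE 1.26, unadjusted p = 0.0841, adjusted p = 0.998, limma). None of the 5 genes passed in this interaction, where 0% of all genes were called.

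Relations between the members and with the levels of fixed gene lists were tested over the 24 animals, 30 in all, and 3 had an adjusted Pearson p under 0.05. The slow fibre level is the mean z score of 12 slow fibre genes, which include CASQ2 and PLN of calcium handling and the low MB. FHL1 varied with this level at r = 0.570 (permutation p = 0.00329, adjusted p = 0.0431) and rho = 0.584 (permutation p = 0.00333, adjusted p = 0.0499). Without the 2 animals of most extreme FHL1, r was 0.519. It was 0.590 in the DLC1512 set and 0.574 in the DLC1601 set, 0.582 in high and 0.585 in low IMF animals. With scaling by a trimmed mean of M values rho was 0.537, with an adjusted p of 0.141.

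ANKRD1 varied with the level of immediate early and heat shock genes at r = 0.561 (permutation p = 0.00431, adjusted p = 0.0431). In rank, rho was 0.586 (permutation p = 0.00312, adjusted p = 0.0499). Immediate early genes are transcribed within minutes of many stimuli, but the list also holds chaperones such as HSPE1 and HSPA8. Within the identifier sets r was 0.712 for DLC1512 and 0.7498 for DLC1601. Within the IMF classes r was 0.369 in high and 0.774 in low IMF animals. Without the 2 most extreme animals r was 0.503, and without the 4 of highest ANKRD1 it was 0.402. With the trimmed-mean scaling rho was 0.525, with an adjusted p of 0.141.

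ANKRD1 and ANKRD2 varied together in the linear measure, with r = 0.606 (permutation p = 0.00182, adjusted p = 0.0431), but not in rank, with rho = 0.330 (permutation p = 0.116, adjusted p = 0.497). Without the 4 animals of highest ANKRD1, r was 0.0653, so this relation rests on those animals. No relation with the adipocyte level passed, with r between −0.112 for FHL1 and 0.236 for CSRP3.

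**Figure D5:**
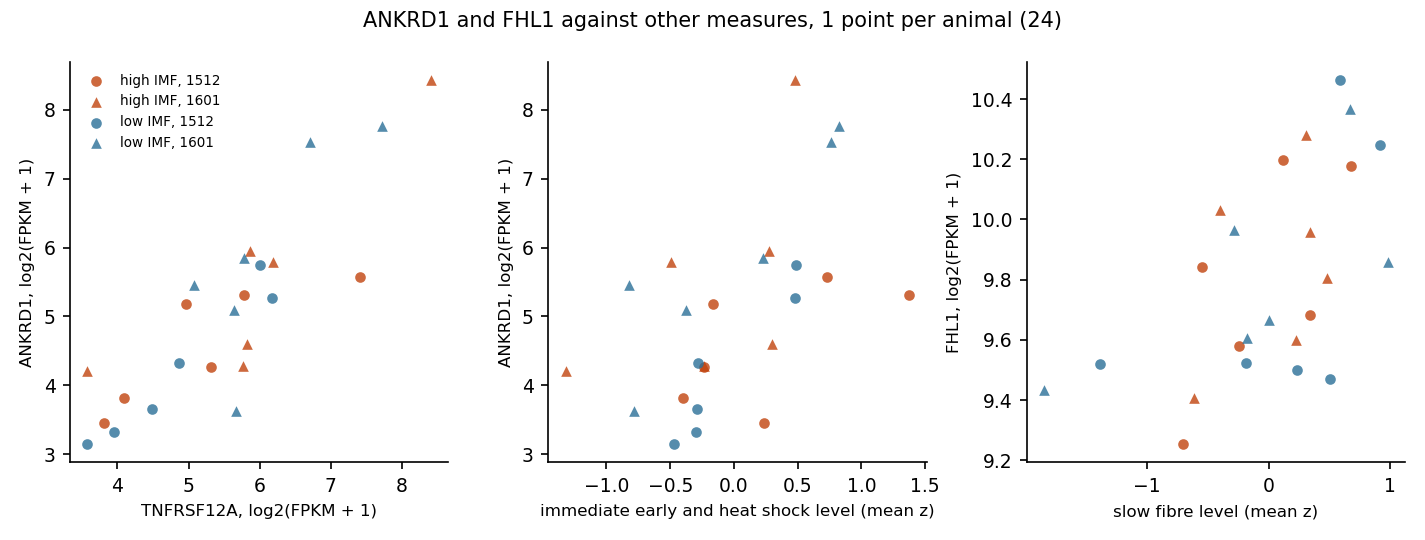
ANKRD1 against TNFRSF12A and against the immediate early and heat shock level, and FHL1 against the slow fibre level, 1 point per pig, expression as log2(FPKM + 1) and list levels as mean z scores, with colour for IMF class and shape for identifier set. The 3 animals of highest ANKRD1 stand above the other 21 in both ANKRD1 panels.

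The genes whose rank order over the 24 animals was most like each member were taken from the 3834 symbols whose mean reached 5 FPKM. They are given as descriptions, since genes measured in the same libraries share depth and composition. For FHL1 they were TNNT1, slow skeletal troponin T, at rho = 0.678, HOMER2, a scaffold protein, at 0.661 and LMCD1, another LIM protein, at 0.650. For FHL3 they were PLEKHF1 at 0.715, METTL7A at 0.694 and PDE4C, a phosphodiesterase, at 0.688.

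For CSRP3 they were MYL12A, a regulatory myosin light chain, at rho = 0.7504, RGCC at 0.676 and HOMER2 at 0.645. RGCC was at 0.210 in the DLC1512 set and 0.944 in the DLC1601 set. ANKRD1 had the closest matches of the 5 members, with TNFRSF12A, a cytokine receptor, at 0.862, IFRD1 at 0.830 and HBEGF, a growth factor, at 0.788. TNFRSF12A was at 0.930 within the DLC1512 set and 0.818 within the DLC1601 set. For ANKRD2 they were RRAD, a small GTPase, at 0.641, MED28 at 0.638 and TSC22D3 at 0.628. The most opposed genes were RFWD2 for FHL1 at −0.584, FAM98C for FHL3 at −0.737, RHOBTB2 for CSRP3 at −0.651, PITPNA for ANKRD1 at −0.657 and SPOPL for ANKRD2 at −0.728.

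Among 22 measured relatives with LIM domains or ankyrin repeats, 0 were called, against 0.051% of all genes (limma). Of these 22, 0 had an unadjusted p under 0.05, against 7.68% of all genes. Their median log2 difference was 0.06, close to the 0.08 of all genes, and 19 of 22 were above 0, a count that was 9 of 22 after scaling by a trimmed mean of M values. ANKRD23, the other muscle ankyrin repeat gene that binds titin, was at 2.24 ± 1.10 FPKM in high and 1.70 ± 1.07 FPKM in low IMF muscle (adjusted p = 0.759). PDLIM3, a Z-disc LIM protein, was at 402 ± 199 and 329 ± 182 FPKM (adjusted p = 0.822). LIMD1 and TGFB1I1 likewise did not pass.

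Of 31 titin and Z-disc partners, 0 were called, against 0.051% of all genes (limma). At an unadjusted p under 0.05, 2 were higher and 2 lower, against 6.79% and 0.893% of all genes. MYPN, myopalladin, which anchors ANKRD1 at the sarcomere, was at 41.6 ± 14.6 FPKM in high and 21.5 ± 18.2 FPKM in low IMF muscle, a log2 difference of 1.32 (SE 0.38, adjusted p = 0.288). TTN, titin itself, was at 3.14 ± 2.55 and 6.76 ± 4.84 FPKM, a log2 difference of −0.96 (SE 0.35, adjusted p = 0.518). TTN was listed at only 0.174 to 19.4 FPKM over all animals. Whether this reflects the muscle or the listing of its transcripts was not tested. ITGA7, the laminin receptor subunit of muscle, had a log2 difference of −0.85 and TRIM63, a muscle ubiquitin ligase, one of 0.49, and neither passed.

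Of 34 genes of mechanical signalling to the nucleus, 0 were called, against 0.051% of all genes (limma). At an unadjusted p under 0.05, 0 were higher and 2 lower, against 6.79% and 0.893% of all genes. The 2 lower ones were MYOD1, the muscle regulator, at 18.8 ± 7.76 FPKM in high and 24.8 ± 6.84 FPKM in low IMF muscle (adjusted p = 0.636), and MKL1, the actin-sensing partner of serum response factor, at 4.203 ± 1.93 and 5.41 ± 1.18 FPKM (adjusted p = 0.642). The list's median log2 difference was 0.01. MAPK3 and NFKBIA, the others of smallest p, had adjusted p-values of 0.659 and 0.665.

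Among fibre type, early response and denervation genes 0 were called (limma). Over all genes 0.051% were called, and 6.79% higher and 0.893% lower values had an unadjusted p under 0.05. Of 12 slow fibre genes 0, and of 13 fast fibre genes 1, had an unadjusted p under 0.05, the latter MYLPF, a fast regulatory light chain, at 3682 ± 1546 FPKM in high and 4859 ± 1100 FPKM in low IMF muscle (adjusted p = 0.521). Of 24 immediate early and heat shock genes it was HSPE1, a mitochondrial chaperonin, with a log2 difference of 0.45 (adjusted p = 0.544). Of 19 denervation and regeneration genes it was SLN, sarcolipin, with one of 0.24 (adjusted p = 0.531). Of the markers of other cell types, 0 of 9 endothelial, 0 of 8 smooth muscle, 0 of 9 fibroblast and 0 of 7 macrophage genes were called. CDH5, an endothelial cadherin, had a log2 difference of 0.55 (adjusted p = 0.490) and COL5A2, a fibrillar collagen, one of −1.08 (adjusted p = 0.464), the others being above an unadjusted p of 0.05.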

How the data were processed

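The authors made and deposited 1 table of FPKM values, 1 row per assembled transcript and 1 column per animal. The unit was inferred from the values. HISAT2 2.0.5, StringTie 1.3.3 and the build Sscrofa11.1 appear in the submitters' processing notes, without their roles. Per the file headers each row also has the authors' fold change (a ratio, low over high IMF), p-value and 3 q-values, whose calculation the sources used here do not give. Each listed transcript is above 0 in 19 or more of 24 libraries, so those seen less often were not analysed here. Reads shared by transcripts were divided by the authors.

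FPKM was summed per gene symbol and chromosome. Differences, high minus low IMF, were tested with limma 3.58.1 in R 4.3.3 (trend, robust) on log2(FPKM + 1), where the mean reached 0.5 FPKM, with Benjamini-Hochberg adjustment over all such features and a threshold of 0.05. Folds on this scale understate the change of low genes. Shares and relations used two-sided permutation tests with 100000 resamples in numpy 2.4.6, and the exact tests within identifier sets used scipy 1.17.1. Animals are numbered within a class in accession order. Identifier sets are the first 4 digits in the titles, with 6 high and 6 low IMF animals each. The Y-linked EIF1AY was under 1 FPKM in 5 high and 3 low IMF animals. Depth was searched over a bounded range for reads of 150 bases, and multiples of it outside that range would fit as well. It was read from the step of FPKM times length: 74.6% to 86.3% of 58 to 109 low values per library fell within 0.05 base of a whole number, against 27.9% to 45.2% at the next best step. Because this is base coverage and not reads, count models were not applied. The limma script was tested on simulated data.

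Besides the members and their transcripts, the text names up to 4 genes of smallest p per list, and the 3 genes of highest and 1 of lowest Spearman rho per member. ACTA1 and MB were named as tissue checks. The members and lists were picked with earlier results of these data known, although the rule that finds the members uses symbols alone. Alternatives covered scaling (TMM, the trimmed mean of M values, and the upper quartile), filters, pseudocount, weights, covariates and animals left out.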

Additional observations from a re-analysis of the deposited data

Results flagged for a closer look

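Each gene was examined in the 4 combinations of IMF class and identifier set, 6 animals each, for an animal far from the others; 20 such groups were examined, and chance alone marks about 1 in 20. In high IMF animals of the DLC1512 set, CSRP3 was lowest in animal 2, at 4.71 FPKM, and its gap to the next animal was 0.639 of the group's whole range on the log2 scale. This is an animal in which MSTRG.7431.1 is listed at 0. In low IMF animals of the DLC1512 set, ANKRD2 was highest in animal 2, at 50.0 FPKM, and its gap was 0.722 of the range. In the same animal the FHL1 transcripts from the outermost start held their largest share, 14.6%.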

How the results depend on the processing

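The members called stayed at 0 under every alternative run, and the lowest adjusted p of any member's gene fit was 0.596, for FHL3 without low IMF animal 10 (limma). Directions were not stable. The log2 difference of FHL1 turned to −0.097 with TMM and −0.104 with the upper quartile, to −0.022 with array weights, and to −0.028 without the libraries of smallest top 10 share (high IMF 7, low IMF 10). That of ANKRD1 turned to −0.102 with TMM, −0.109 with the upper quartile, −0.084 with the Y-linked level as a term and −0.17 with 1 animal per shared first 9 identifier digits (21 animals). CSRP3 turned to −0.43 on its reference transcript alone and, added after seeing the data, to −0.13 without the 4 animals listed at 0. ANKRD2 turned to 0.22 with the unnamed transcript, also added later. FHL3 kept its direction, at 0.10 to 0.27 under these alternatives and 0.16 to 0.32 with each animal left out. The cause was not tested.

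Leaving out each animal in turn gave −0.025 to 0.077 for FHL1, 0.16 to 0.76 for CSRP3, −0.30 to 0.25 for ANKRD1 and −1.06 to −0.37 for ANKRD2. It turned the share difference of ENSSSCT00000032876 (−0.0930 to 0.0492 points), ENSSSCT00000013884 (−0.995 to 0.274), ENSSSCT00000004040 (−0.225 to 0.404), ENSSSCT00000004043 (−0.404 to 0.225), MSTRG.7431.3 (−7.56 to 3.11) and ENSSSCT00000066364 (−2.03 to 2.09) with some animal. The main FHL1 transcript, ENSSSCT00000013884, turned to −0.090 with TMM. With 1 animal per 9 digits, share differences turned to 0.0199 points for ENSSSCT00000032876, 0.293 for ENSSSCT00000013884, −0.0780 for MSTRG.16217.10, −0.631 for ENSSSCT00000004040 and 0.631 for ENSSSCT00000004043.

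With TMM, rho with the fast fibre level turned to 0.330 for FHL1, 0.0217 for FHL3 and 0.0122 for CSRP3. Without the 4 animals of highest ANKRD1, added later, rho turned to 0.0632 for FHL3 with ANKRD1, −0.198 for CSRP3 with ANKRD2, −0.123 for ANKRD1 with ANKRD2, and −0.0271 for CSRP3 and −0.0707 for ANKRD2 with the immediate early and heat shock level. Restricting shares to transcripts with a mean of at least 0.5 FPKM was not run, since all 21 pass. No paired analysis was possible because the labels give no replicate numbers. The lowest ANKRD2 level amounts to about 16.6 reads at the inferred depth, and the part of depth in low ANKRD2 values was not tested.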
